A study of Homo sapiens with 7 samples.

Results

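The genes described here encode the hydrolases, activator proteins, membrane proteins and sorting receptors of the lysosome and the subunits of its proton pump, the vacuolar ATPase (V-ATPase). They were chosen by gene symbol: 44 listed names, of which 43 were found, and every symbol that begins as those of V-ATPase subunits do, a further 19. This gave 62 genes of the 11405 analysed. The cells were MOLM13, an established human line of acute myeloid leukemia, and poly(A)-selected RNA was sequenced on day 6 after transduction with guide RNAs for genome editing, in 7 libraries. The sgZFP36L2 group had 4 libraries, 2 with each of 2 guides against ZFP36L2, called guide 3 and guide 5 after the deposited tables. The sgRosa group, a non-targeting guide per the labels, had 3 libraries. All groups were the same line, with no other treatment named in the labels. The labels do not say that replicates were separate cultures, that cells were single clones or how many cells were edited, so p-values measure the spread between these libraries.

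The lysosome is the acidic organelle in which cells break down proteins, glycans, lipids and nucleic acids taken up from outside or delivered by autophagy. Most of its hydrolases carry mannose 6-phosphate, which receptors recognise on the way from the Golgi. The V-ATPase acidifies it: the V1 sector on the cytosolic side hydrolyses ATP and turns a rotor, and the V0 sector in the membrane passes protons. Phagocytes of the monocyte lineage are known for their rich lysosomes. The transcription factors TFEB, TFE3, MITF and TFEC (the MiT/TFE family) bind E-box elements, often TCACGTGA, in promoters of lysosomal genes. ZFP36L2 encodes an RNA-binding protein that recognises AU-rich elements such as TATTTAT (with U for T in RNA) in 3′ UTRs and promotes mRNA decay.

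Both kinds of element are shown for lysosomal genes, since the values below are set beside them. The first set holds the E-box stretches of the 8 lysosomal promoters with TCACGTGA, from the RefSeq promoter table (GRCh38.p14), which held 46 of the 62 genes. Each promoter covers 250 bases before to 50 bases after 1 RefSeq start of the gene, which need not be the start of its GENCODE span. A short stretch shared with the GENCODE transcript used here was found for 39 of the 46. Each is read 5′ to 3′ on the strand of the gene, and capitals mark 1 TCACGTGA.
GAA, plus strand, chr17:80101484-80101531: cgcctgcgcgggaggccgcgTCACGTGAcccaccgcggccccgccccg
MCOLN1, plus strand, chr19:7522562-7522609: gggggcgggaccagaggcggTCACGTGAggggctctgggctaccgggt
CTSA, plus strand, chr20:45891289-45891336: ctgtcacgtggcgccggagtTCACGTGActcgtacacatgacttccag
ATP6V0D1, minus strand, chr16:67481190-67481237: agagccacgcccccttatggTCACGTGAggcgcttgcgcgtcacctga
IGF2R, plus strand, chr6:159968929-159968976: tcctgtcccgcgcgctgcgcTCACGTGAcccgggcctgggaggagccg
GALNS, minus strand, chr16:88857095-88857142: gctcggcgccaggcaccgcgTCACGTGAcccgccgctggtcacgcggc
ATP6V1G1, plus strand, chr9:114587690-114587737: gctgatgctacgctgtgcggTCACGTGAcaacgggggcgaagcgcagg
LAMP1, plus strand, chr13:113297190-113297237: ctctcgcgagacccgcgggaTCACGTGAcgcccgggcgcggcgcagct

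The second set holds TATTTAT sites in the 3′ UTRs of 6 of the 9 lysosomal genes that passed the test in either direction and carry the element (CTSH, IDS and ATP6V1E1, which rose, are the other three), from GENCODE 29 transcripts (GRCh38). Capitals mark the element, with T for U.
ATP6V1C2, plus strand, chr2:10783393-10783421: agtgacagttgTATTTATttttttaagtt
ATP6V0A2, plus strand, chr12:123760275-123760303: aatctatgtagTATTTATgtagaatgtca
MCOLN1, plus strand, chr19:7533849-7533877: ccgaccccgctTATTTATttgtagggttt
ATP6AP1, plus strand, chrX:154436167-154436195: tcctttctcctTATTTATtcttgtggcta
ATP6V0B, plus strand, chr1:43978030-43978058: tgcctcactttTATTTATtgctggttttc
IGF2R, plus strand, chr6:160105455-160105483: ttctctcccccTATTTATtgactttgaca

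Levels are read counts scaled to an adjusted library size (CPM), recovered from the deposited FPKM. That size is not the read total of the analysed genes. It was 21389600 for sgRosa replicate 2, which had 25164359 reads, and 18523600 for sgRosa replicate 1, which had 16907955. Changes are log2 differences of CPM + 0.5 between the mean of the guides and sgRosa, given ± SE. They were tested with limma over all 11405 genes, with Benjamini-Hochberg adjusted p and a threshold of 0.05; the pseudocount of 0.5 CPM lowers the fold of genes near 0. Of the 62 lysosomal genes 34 rose, 3 fell and 25 did not pass the test. Among all genes tested, 20.8% rose and 20.6% fell. The median log2 change of the lysosomal genes was 0.61, against -0.05 over all genes. For 35 of them each sgZFP36L2 library lay above each sgRosa library, and for 3 each lay below; over all genes these shares were 19.7% and 23.7%. Together the 62 genes took 1.45% to 1.84% of the reads in the sgZFP36L2 libraries and 0.851% to 0.923% in the sgRosa libraries. By class, the share that rose ran from 77.8% of the proteases to 20.0% of the V1 sector; differences between the classes were not tested.

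**Figure D1:**
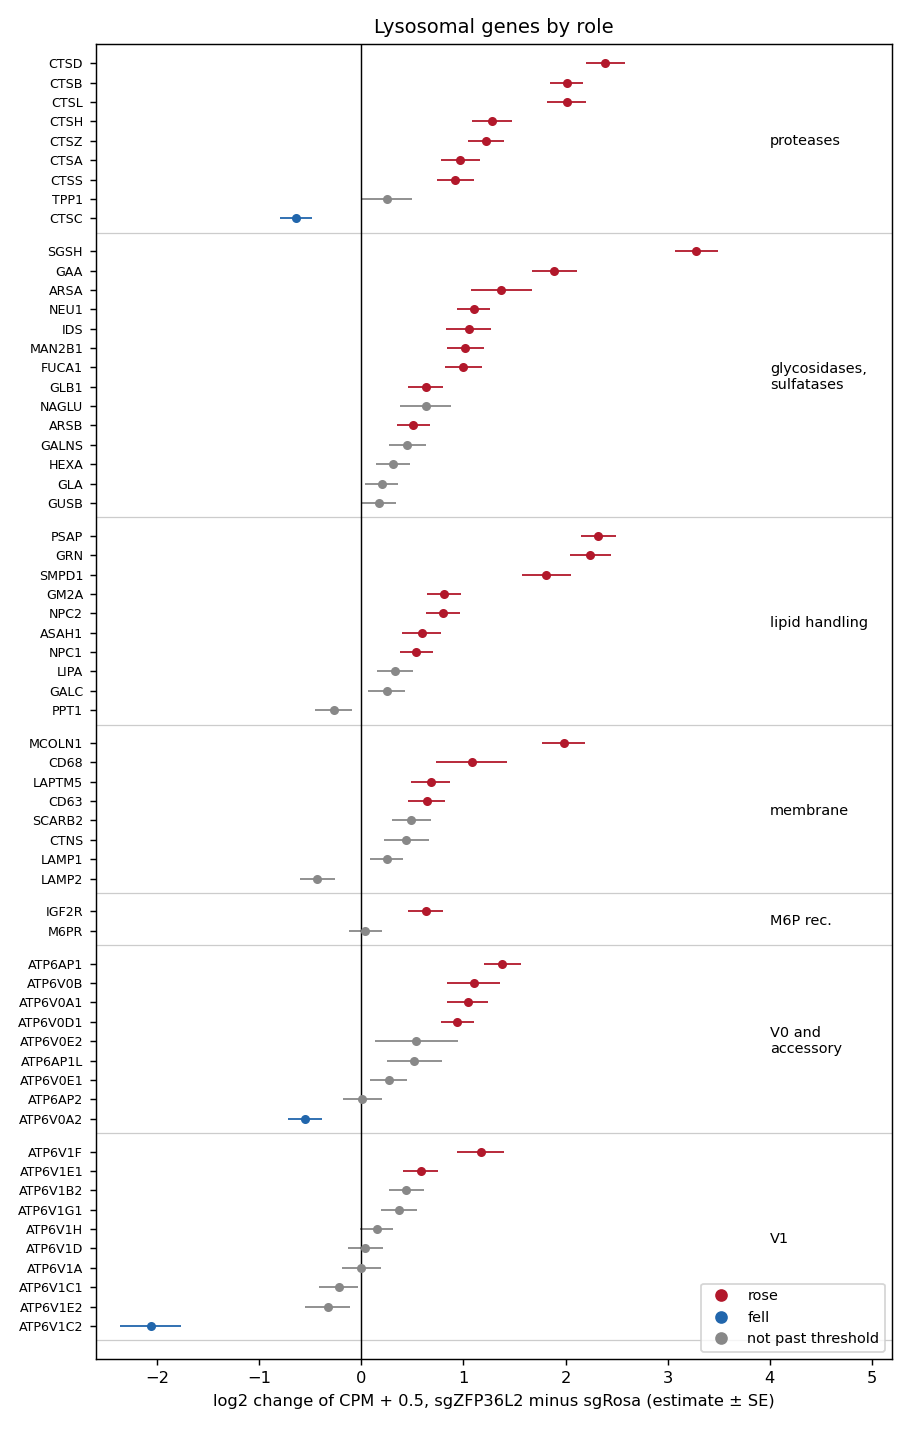
Log2 change of CPM + 0.5, sgZFP36L2 minus sgRosa, for the 62 lysosomal genes by role, with estimates as points and SE as bars. Red points rose (34), blue points fell (3) and grey points did not pass the threshold (25); SGSH is the highest at 3.28 and ATP6V1C2 the lowest at -2.06.

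The libraries themselves set limits on these values. Reads assigned to the analysed genes ranged from 28087790 to 38807467 in the sgZFP36L2 libraries and from 16907955 to 25164359 in the sgRosa libraries. ZFP36L2 mRNA was higher in the libraries labelled sgZFP36L2, at 977 ± 320 CPM (SD, n = 4), than in sgRosa libraries, at 327 ± 14.4 CPM (SD, n = 3), with a log2 change of 1.52 ± 0.16 (limma adjusted p = 1.3e-05). Loss of the protein is not measured here, and every direction is that of the libraries as labelled. All 14 monocyte and macrophage markers in the table, of 16 fixed as such, rose; their log2 changes had a median of 3.84, and their summed level was 10600 to 21300 CPM in sgZFP36L2 libraries and 4180 to 7110 CPM in sgRosa libraries. CD163 and MRC1 were not analysed here, no marker of this list was at 0 in the sgZFP36L2 libraries, and CD300E, FCGR3A and S100A12 were at 0 in at least 1 sgRosa library. Of 7 genes of the myeloid identity of the line, CEBPA and SPI1 rose, FLT3, MEIS1 and MPO fell, and the other two did not pass; their summed level was 1310 to 1670 CPM in sgZFP36L2 libraries against 1190 to 1410 CPM in sgRosa libraries. After correction for GC content and transcript length the 3 falls passed, and CEBPA (0.23, limma adjusted p = 0.13) and SPI1 (0.36, limma adjusted p = 0.21) did not. CD3D, the only marker of other blood lineages in the table, was at 5.70 to 7.98 CPM in sgZFP36L2 libraries and 13.6 to 18.5 CPM in sgRosa libraries. Of 4 markers of non-blood cells, EPCAM and COL1A1 were not analysed here, KRT18 did not pass, with a log2 change of -0.45, and PECAM1, an adhesion molecule of endothelium that monocytes also carry, rose. The summed level of both was 563 to 900 CPM in sgZFP36L2 libraries and 197 to 353 CPM in sgRosa libraries, and the log2 change of PECAM1 was 1.49 (limma adjusted p = 2.0e-04). The part of the monocyte genes and of PECAM1 in the lysosomal result was not tested, and in bulk RNA more cells of a type and more RNA per cell cannot be told apart.

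The cathepsins and other proteases had the highest median change of the classes, 1.22, with 7 of 9 rising and CTSC falling. CTSD, the main aspartic protease of the lysosome (ENSG00000117984, chromosome 11, 1752752 to 1764573 in GRCh38), had 607 and 656 CPM with guide 3 and 413 and 340 CPM with guide 5, against 71.2, 94.3 and 117 CPM in sgRosa libraries. The groups did not overlap, and the log2 change was 2.39 ± 0.19, a 5.25-fold rise (adjusted p = 1.0e-06). The cysteine protease CTSB had 1500 and 1340 CPM with guide 3 and 1170 and 1040 CPM with guide 5, against 273, 333 and 328 CPM with sgRosa. Each guide library was well above each control, with a log2 change of 2.01 ± 0.16 (adjusted p = 1.4e-06). CTSL, a cysteine endopeptidase, rose by the same amount, 2.01 ± 0.19 (adjusted p = 5.5e-06), from a lower level: 54.5 ± 9.03 CPM (SD, n = 4) in sgZFP36L2 libraries and 13.2 ± 3.04 CPM (SD, n = 3) in sgRosa libraries. Annotated exons of CTSD share 54.9% of their bases with AC068580.4 on the same strand, so its reads could be split by the counting.

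The 4 other proteases that rose changed less. CTSH, an aminopeptidase, rose by a log2 of 1.28, the carboxypeptidase CTSZ by 1.22, CTSA by 0.97 and CTSS by 0.92. CTSA is the protective protein that holds NEU1 and GLB1 in a stable complex, and CTSS trims the invariant chain of MHC class II. TPP1, a tripeptidyl peptidase, did not pass, with a log2 change of 0.25 ± 0.25 (adjusted p = 0.43). Its sgZFP36L2 libraries held 410 to 495 CPM; 1 sgRosa library, replicate 2, held 638 CPM while the others held 270 and 328 CPM, so the groups overlapped.

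CTSC ran the other way. It encodes dipeptidyl peptidase I, which activates the serine proteases of granulocyte and cytotoxic granules (ENSG00000109861, chromosome 11, 88293592 to 88337787). It had 226 and 215 CPM with guide 3 and 229 and 235 CPM with guide 5, against 345, 404 and 317 CPM with sgRosa. The 4 sgZFP36L2 libraries were close together and all below the controls, with a log2 change of -0.64 ± 0.16 (adjusted p = 0.0073) and, once each library had been corrected for GC content and transcript length, -0.46 (adjusted p = 0.0092).

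**Figure D2:**
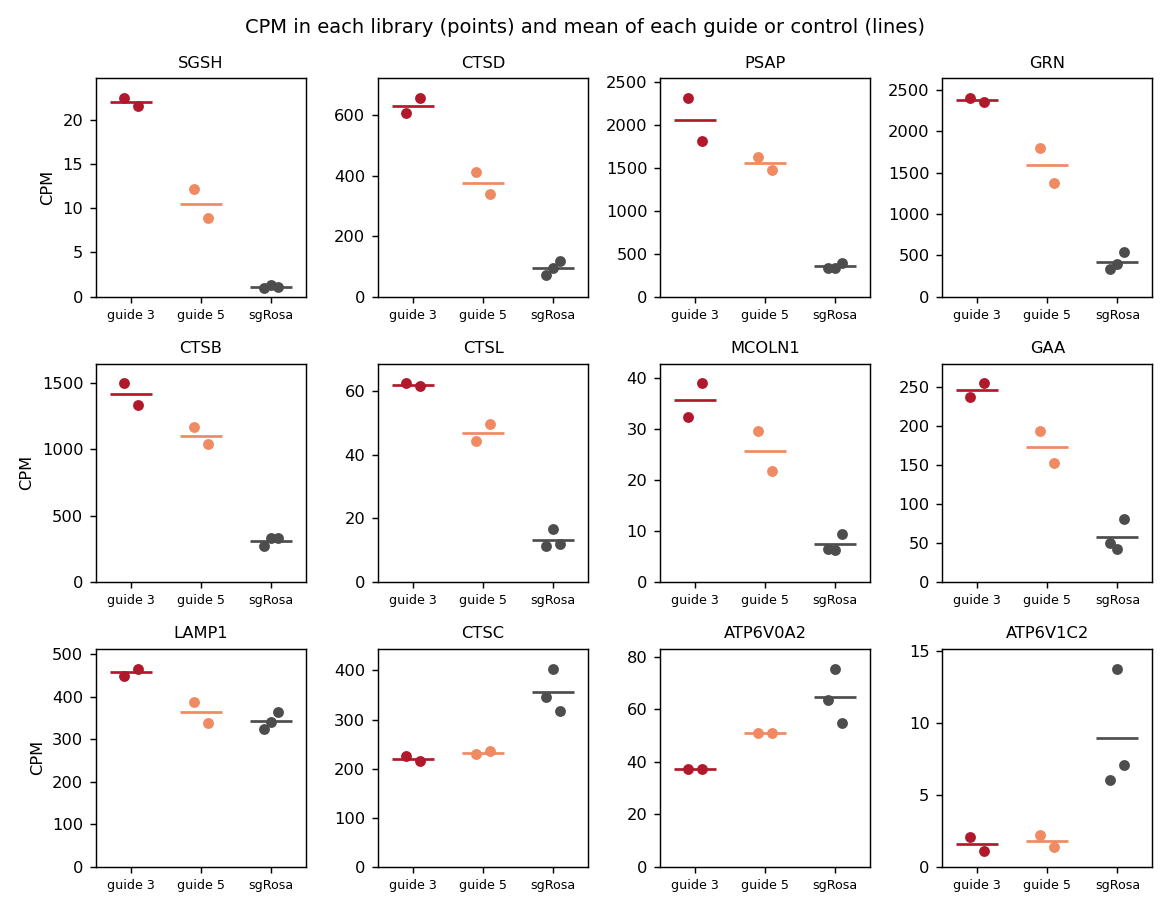
CPM in each library (points) and mean of each guide or of sgRosa (lines), for the 8 lysosomal genes that rose most, LAMP1, and the 3 that fell; each panel has its own axis from 0. For all of these but LAMP1, no sgZFP36L2 library overlaps a sgRosa library.

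Among glycosidases and sulfatases, which strip sugars and sulfates from glycans, 9 of 14 rose and none of the 14 had a log2 change below 0; the median was 0.82. SGSH, the sulfamidase of heparan sulfate breakdown (ENSG00000181523, chromosome 17, 80206716 to 80220923), had the highest change of all lysosomal genes, from very few reads. It had 22.4 and 21.5 CPM with guide 3 and 12.1 and 8.84 CPM with guide 5, against 0.972, 1.31 and 1.06 CPM with sgRosa. These stood for 258 to 821 reads in the sgZFP36L2 libraries and 18 to 28 reads in the sgRosa libraries. Guide 3 was above guide 5 and both were above the controls; the log2 change was 3.28 ± 0.21 (adjusted p = 1.5e-07).

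GAA, the acid α-glucosidase that digests glycogen in lysosomes (ENSG00000171298, chromosome 17, 80101556 to 80119879), had 238 and 255 CPM with guide 3 and 194 and 153 CPM with guide 5, against 49.8, 42.3 and 80.8 CPM with sgRosa. The groups were far apart, with a log2 change of 1.89 ± 0.22 (adjusted p = 2.9e-05). Its promoter holds 2 TCACGTGA elements, 1 of them printed above. The other rises were ARSA (1.37), NEU1 (1.10), IDS (1.05), MAN2B1 (1.02), FUCA1 (1.00), GLB1 (0.63) and ARSB (0.51). They cleave sulfatides, sialic acids, iduronate sulfate, mannose, fucose, galactose and N-acetylgalactosamine sulfate in that order. ARSA has the highest GC content of the 62 genes, 66.0%, and its change was 0.54 after GC correction. That of MAN2B1 was 0.40 after GC correction and no longer passed (adjusted p = 0.12).

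The smaller rises of this class lost the call when single libraries were left out. ARSB averaged 151 ± 13.0 CPM in sgZFP36L2 libraries (SD, n = 4) and 106 ± 7.23 CPM in sgRosa libraries (SD, n = 3), with no overlap (adjusted p = 0.020). It lost the call in 5 of 7 fits that left out a library, those without any 1 of the guide libraries or sgRosa replicate 1 (limma adjusted p from 0.052 to 0.099). GLB1, at 119 ± 10.9 CPM against 77.3 ± 10.6 CPM, lost it without guide 3 replicate 1 (limma adjusted p = 0.056) or guide 5 replicate 1 (0.058). NAGLU (0.63), GALNS (0.45), HEXA (0.31), GLA (0.20) and GUSB (0.17) did not pass. HEXA, a subunit of β-hexosaminidase, had no overlap between groups all the same, at 70.4 to 87.4 CPM against 53.9 to 66.6 CPM.

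Proteins that handle lipids, and the multifunctional precursors processed with them, rose in 7 of 10 cases with a median of 0.70. PSAP, the precursor of the saposins that help hydrolases act on sphingolipids (ENSG00000197746, chromosome 10, 71816298 to 71851375), had 2310 and 1810 CPM with guide 3 and 1630 and 1470 CPM with guide 5, against 337, 335 and 396 CPM with sgRosa. Each sgZFP36L2 library exceeded each control several times over, and the log2 change was 2.32 ± 0.17, or 5.01-fold (adjusted p = 5.2e-07). GRN encodes progranulin, a secreted glycoprotein that is cut into granulins in the lysosome and that binds prosaposin (ENSG00000030582, chromosome 17, 44345086 to 44353102). It had 2400 and 2360 CPM with guide 3 and 1800 and 1380 CPM with guide 5, against 328, 389 and 539 CPM with sgRosa. The log2 change was 2.24 ± 0.20, or 4.72-fold (adjusted p = 3.1e-06), with no overlap.

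SMPD1, acid sphingomyelinase, was a low transcript that reached 13.0 ± 1.68 CPM in sgZFP36L2 libraries (SD, n = 4) and 3.47 ± 1.34 CPM in sgRosa libraries (SD, n = 3), a log2 change of 1.81 ± 0.24 (adjusted p = 1.0e-04). GM2A, the activator for ganglioside GM2, rose by 0.81 and NPC2, which hands cholesterol to NPC1, by 0.80. NPC1 itself, the membrane transporter for cholesterol, had 54.2 ± 4.48 CPM against 37.1 ± 1.89 CPM and a log2 change of 0.54 ± 0.16 (adjusted p = 0.019). ASAH1, acid ceramidase, had 225 ± 36.7 CPM against 150 ± 32.9 CPM and a log2 change of 0.59 ± 0.19 (adjusted p = 0.025). Both calls were lost in 5 of 7 fits that left out a library. For NPC1 these were the fits without any 1 guide library or sgRosa replicate 1 (limma adjusted p from 0.054 to 0.11). For ASAH1 they were those without guide 3 replicate 1, either guide 5 library, or sgRosa replicate 1 or 3 (limma adjusted p from 0.072 to 0.12).

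The lipid hydrolases LIPA, with a log2 change of 0.33, and GALC, with 0.25, did not pass the test. Both did after GC correction, at 0.65 (adjusted p = 0.0054) and 0.61 (adjusted p = 0.0057). PPT1, which removes fatty acids from proteins, did not pass in either fit, at -0.27 and -0.08. Its exons share 27.3% of their bases with CAP1 on the opposite strand, and the strand setting of the authors' counting is not given in the sources used here, although the library kit was directional per the labels.

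The membrane proteins were split: 4 of 8 rose, and the abundant structural glycoproteins did not pass. MCOLN1, the calcium release channel TRPML1 (ENSG00000090674, chromosome 19, 7522626 to 7534009), had 32.3 and 38.9 CPM with guide 3 and 29.6 and 21.8 CPM with guide 5, against 6.37, 6.31 and 9.37 CPM with sgRosa. The log2 change was 1.98 ± 0.21 (adjusted p = 1.5e-05) with no overlap. LAMP1, the glycoprotein that lines the inner face of the membrane, had 448 and 466 CPM with guide 3 and 387 and 339 CPM with guide 5, against 325, 340 and 363 CPM with sgRosa. The groups overlapped, and its log2 change was 0.25 ± 0.16 (adjusted p = 0.21) before and -0.09 after GC correction. LAMP2, its paralog with a part in autophagy, had a log2 change of -0.43 ± 0.17 (adjusted p = 0.066) before and 0.08 after GC correction, and the lowest GC content of the 62 genes, 37.7%.

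LAPTM5, an abundant lysosomal protein of blood cells, averaged 1360 ± 187 CPM in sgZFP36L2 libraries (SD, n = 4) and 866 ± 226 CPM in sgRosa libraries (SD, n = 3), a log2 change of 0.68 ± 0.19 (adjusted p = 0.015). CD63, a tetraspanin of late endosomes and exosomes, averaged 313 ± 49.2 CPM and 202 ± 41.8 CPM, a log2 change of 0.64 ± 0.18 (adjusted p = 0.013), and 0.32 after GC correction (adjusted p = 0.17). LAPTM5 lost the call without guide 3 replicate 1 (limma adjusted p = 0.059), guide 5 replicate 1 (0.058) or sgRosa replicate 1 (0.067), and CD63 without guide 5 replicate 1 (0.067) or sgRosa replicate 1 (0.063). CD68, the macrosialin of macrophages, averaged 21.5 ± 4.27 CPM with guide 3 and 9.87 ± 2.96 CPM with guide 5 (SD, n = 2 each), against 11.2, 2.90 and 8.23 CPM with sgRosa. Guide 5 and control values overlapped, although the joint log2 change of 1.08 ± 0.35 passed (adjusted p = 0.028). Without sgRosa replicate 2, the lowest library, the change of CD68 was 0.56 (limma adjusted p = 0.055), and it also lost the call without guide 3 replicate 1 (0.061) or guide 5 replicate 1 (0.086). Annotated exons of CD68 share 95.3% of their bases with AC016876.2 on the same strand, so its level is uncertain. SCARB2, the carrier of glucocerebrosidase, and CTNS, the cystine exporter, had changes of 0.49 and 0.44 that did not pass; that of SCARB2 was 0.80 after GC correction (adjusted p = 0.0028).

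Of the mannose 6-phosphate receptors, IGF2R rose and M6PR did not pass. IGF2R, the large cation-independent receptor, had 755 and 674 CPM with guide 3 and 797 and 681 CPM with guide 5, against 427, 530 and 457 CPM with sgRosa, and a log2 change of 0.63 ± 0.17 (adjusted p = 0.010). It lost the call without guide 3 replicate 1 (limma adjusted p = 0.054) or guide 5 replicate 1 (0.069). M6PR, the cation-dependent receptor, had 227 to 239 CPM in sgZFP36L2 libraries and 207 to 261 CPM in sgRosa libraries, a log2 change of 0.04 ± 0.16 (adjusted p = 0.84). Its exons share 40% of their bases with PHC1 on the opposite strand.

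Subunits of the V-ATPase did not move as 1 block. In the V0 sector with its accessory proteins, 4 of 9 rose and ATP6V0A2 fell, with a median of 0.54. ATP6AP1, an accessory subunit needed for assembly of the pump, had 314 and 319 CPM with guide 3 and 254 and 225 CPM with guide 5, against 101, 87.4 and 132 CPM with sgRosa; the log2 change was 1.38 ± 0.18 (adjusted p = 7.9e-05). The other rises were ATP6V0B, a subunit of the proton-carrying ring (1.10 ± 0.26), ATP6V0A1, an isoform of the a subunit (1.04 ± 0.20), and ATP6V0D1, which joins the ring to the rotor (0.94 ± 0.16). ATP6V0B did not pass after GC correction (0.48, adjusted p = 0.081). Its sgRosa libraries were themselves spread, at 135, 64.2 and 154 CPM.

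The isoforms of the a subunit moved in opposite directions. ATP6V0A1 had 111 to 148 CPM in sgZFP36L2 libraries and 47.9 to 86.3 CPM in sgRosa libraries. ATP6V0A2, an isoform known from the Golgi and endosomes (ENSG00000185344, chromosome 12, 123712318 to 123761755), had 37.4 and 37.2 CPM with guide 3 and 50.8 and 50.8 CPM with guide 5, against 63.5, 75.5 and 54.8 CPM with sgRosa. All 4 were below the controls, with a log2 change of -0.55 ± 0.17 (adjusted p = 0.023). This fall of ATP6V0A2 was -0.29 after GC correction (adjusted p = 0.070) and lost the call in 5 of 7 fits that left out a library, those without any 1 guide library or sgRosa replicate 1 (limma adjusted p from 0.056 to 0.089). ATP6V0E1, ATP6V0E2 and the accessory subunit ATP6AP2 did not pass, at 0.27, 0.54 and 0.01. Nor did ATP6AP1L, a gene only named for its likeness to ATP6AP1 and near 1 CPM, at 0.52.

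In the V1 sector 2 of 10 genes rose (20.0%), 1 fell (10.0%) and the median was 0.09. Over all genes 20.8% rose and 20.6% fell, so the share of rises was near that of all genes. ATP6V1F, part of the rotor stalk, had 221 and 254 CPM with guide 3 and 182 and 132 CPM with guide 5, against 58.4, 120 and 87.0 CPM with sgRosa. These did not overlap, and the log2 change was 1.17 ± 0.23 (adjusted p = 0.0019), though 0.72 after GC correction (adjusted p = 0.12). ATP6V1E1, of the peripheral stalk, had 155 ± 19.6 CPM in sgZFP36L2 libraries (SD, n = 4) and 104 ± 21.3 CPM in sgRosa libraries (SD, n = 3), a log2 change of 0.58 ± 0.17 (adjusted p = 0.018). It lost the call in 5 of 7 fits, those without any 1 guide library or sgRosa replicate 1 (limma adjusted p from 0.054 to 0.080).

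ATP6V1A and ATP6V1B2, subunits of the ring that hydrolyses ATP, did not pass in the main fit. ATP6V1A, which binds and hydrolyses ATP, averaged 86.5 ± 14.9 CPM in sgZFP36L2 libraries and 86.7 ± 16.9 CPM in sgRosa libraries, a log2 change of 0.00 ± 0.19 (adjusted p = 1.0). ATP6V1B2, its partner in the ring, had 619 to 828 CPM in sgZFP36L2 libraries, all above the 435 to 601 CPM of the sgRosa libraries, and a log2 change of 0.44 ± 0.17 (adjusted p = 0.057). After GC correction ATP6V1B2 was at 0.63 and passed (adjusted p = 0.0092), as did ATP6V1G1 at 0.55 (adjusted p = 0.043), and the sector then counted 3 rises, 1 fall and a median of 0.38. The V1 genes have the lowest median GC content of the classes, 45.4%.

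ATP6V1C2, an isoform of the C subunit known from kidney and lung (ENSG00000143882, chromosome 2, 10721100 to 10785110), had the largest fall. It had 2.04 and 1.12 CPM with guide 3 and 2.20 and 1.37 CPM with guide 5, against 6.05, 13.8 and 7.08 CPM with sgRosa, from 40 to 82 and 112 to 296 reads. All sgZFP36L2 libraries were lower, with a log2 change of -2.06 ± 0.30 (adjusted p = 2.2e-04). Its last exons overlap PDIA6 on the opposite strand over 31.1% of its exon bases. PDIA6 itself, at 324 ± 20.0 CPM and 528 ± 61.6 CPM (SD, n = 4 and n = 3), fell by 0.70 on the log2 scale. Whether reads of PDIA6 were counted for ATP6V1C2 was not tested. The ubiquitous isoform ATP6V1C1 had 177 to 260 CPM in sgZFP36L2 libraries and 195 to 305 CPM in sgRosa libraries and did not pass (-0.22 ± 0.19).

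Per kilobase of annotated exons, GRN was the highest of the 62 genes in sgZFP36L2 libraries, at a mean of 847 CPM per kilobase, and second to LAPTM5 in sgRosa libraries, at 179 CPM per kilobase. PSAP followed in sgZFP36L2 libraries with 626 CPM per kilobase, where it stood at 123 in sgRosa libraries, and LAPTM5 was at 613 and 390. CTSB was at 303 CPM per kilobase in sgZFP36L2 libraries and 74.7 in sgRosa libraries, and CTSD at 237 and 44.4, which moved CTSD to rank 8 in sgZFP36L2 libraries, against rank 25 in sgRosa libraries. LAMP1, at 152 and 127, took rank 9 and rank 5. CTSZ, at 304 and 132, took rank 4 in both groups. The lowest genes were SGSH in sgRosa libraries, at 0.332 CPM per kilobase, and ATP6V1C2 in sgZFP36L2 libraries, at 0.507. Ranks next to each other, such as CTSZ and CTSB in sgZFP36L2 libraries, lie within the spread between libraries.

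**Figure D3:**
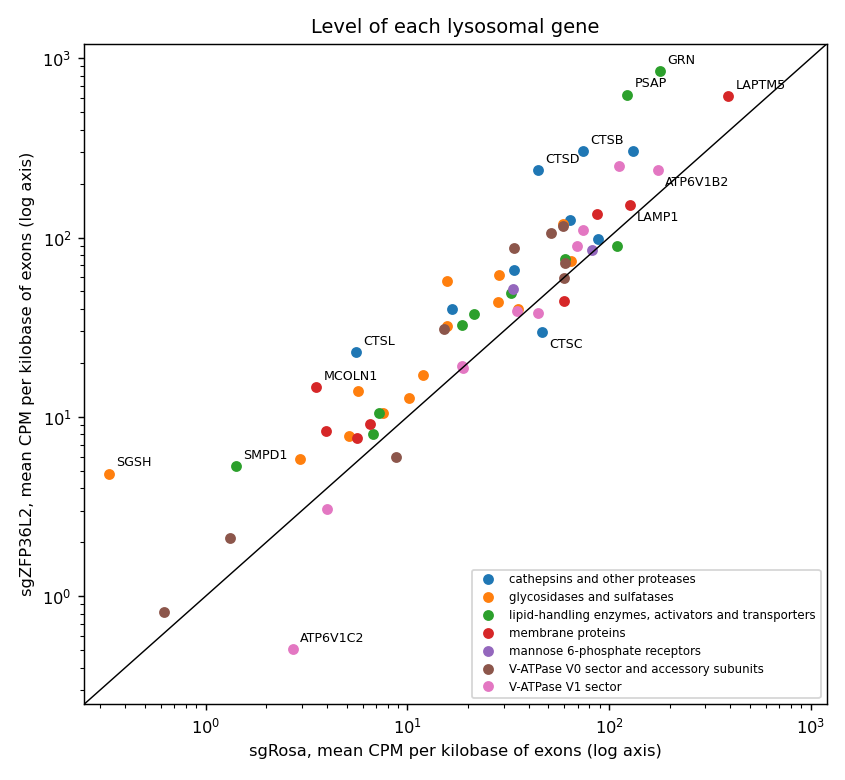
Mean level of each lysosomal gene in CPM per kilobase of exons, sgZFP36L2 on the vertical and sgRosa on the horizontal log axis, coloured by role, with the line of equal levels. PSAP (626 and 123), GRN (847 and 179), CTSD (237 and 44.4) and SGSH (4.83 and 0.332) lie well above the line, and ATP6V1C2 (0.507 and 2.71) below it.

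Each guide was also set against the same 3 sgRosa libraries, so the comparisons share their controls. With guide 3, 36 lysosomal genes rose and 3 fell, where 21.1% and 18.9% of all genes did. With guide 5, 24 rose and 2 fell, where 12.2% and 7.68% of all genes did. In the authors' deposited table, at a false discovery rate under 0.05, guide 3 had 36 higher and 3 lower lysosomal genes, where 20.5% and 19.4% of all genes were, and guide 5 had 24 and 2, where 11.9% and 7.81% were. With libraries left out in turn, the guide 5 rises ranged from 10 (without guide 5 replicate 1) to 37 (without sgRosa replicate 2), and were 13 without guide 5 replicate 2 and 14 without sgRosa replicate 1. The guide 3 rises were 22 without guide 3 replicate 1. The shares of all genes in the fits with a library left out are not given here. Those counts alone therefore do not show a change particular to lysosomal genes. With all libraries, the median log2 change was 0.70 with guide 3 and 0.52 with guide 5. PSAP changed by 2.53 with guide 3 and 2.12 with guide 5, GRN by 2.54 and 1.94, CTSD by 2.77 and 2.02, and SGSH by 3.80 and 2.75. ATP6V0D1 changed by 1.29 with guide 3 and by 0.58 with guide 5, which did not pass (adjusted p = 0.052).

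Guide 5 was then compared with guide 3 directly. No lysosomal gene passed in either direction in limma, and 6 of the 62 had an unadjusted p under 0.05; over all genes 0.298% were higher and 0.0526% lower with guide 5. In sign, 52 of the 62 genes (83.9%) were lower with guide 5, with a median of -0.27, and over all genes 6101 of 11405 (53.5%) were, with a median of -0.03. CD68 had the lowest value, -1.10 ± 0.46 (adjusted p = 0.45), followed by SGSH, -1.05 ± 0.28 (adjusted p = 0.18), and CTSD, -0.75 ± 0.25 (adjusted p = 0.34). ATP6V0A2 was at 0.44 ± 0.23. All 14 monocyte markers were lower with guide 5, and 4 of them passed; ZFP36L2 mRNA was at -0.80 ± 0.21 (adjusted p = 0.18). Their part in the lysosomal values was not tested. Fitted with both guide groups alone, 10 of the 62 lysosomal genes passed as lower with guide 5. In that fit 10.0% of all genes were lower and 6.21% higher. Without sgRosa replicate 2, which enters only the estimate of spread, 4 of the 62 were lower, where 1.76% of all genes were lower and 2.01% higher.

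GC content moved with the changes of all genes. All genes were split by transcript GC content into 3 bins of equal size. Of the lysosomal genes in the GC-rich bin 18 of 24 rose (75.0%), of those in the middle bin 13 of 25 (52.0%) and of those in the GC-poor bin 3 of 13 (23.1%). Over all genes these shares were 43.4%, 13.9% and 5.21%. Falls ran the other way over all genes, at 1.58% in the GC-rich and 43.2% in the GC-poor bin, and among lysosomal genes they numbered 0 in the GC-rich, 2 in the middle and 1 in the GC-poor bin. When each library was corrected for GC content and length, 33 lysosomal genes rose and 2 fell with a median of 0.53, against 14.8% and 16.7% of all genes and a median of -0.10. Of the 34 rises 28 were shared between both fits, and 6 were lost: ATP6V0B, ATP6V1F, CD63, CD68, CTSA and MAN2B1. The 5 added were LIPA, GALC, SCARB2, ATP6V1B2 and ATP6V1G1.

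**Figure D4:**
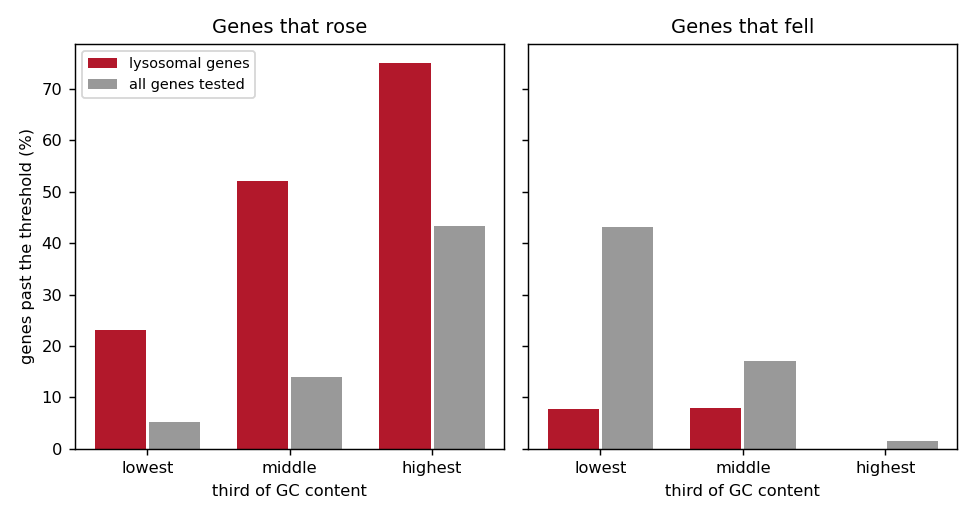
Percent of lysosomal genes (red) and of all genes tested (grey) that rose (left) or fell (right) in sgZFP36L2 against sgRosa libraries, with genes split into 3 equal bins by transcript GC content. In the GC-rich bin 75.0% of lysosomal genes and 43.4% of all genes rose; in the GC-poor bin 7.69% and 43.2% fell.

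**Figure D5:**
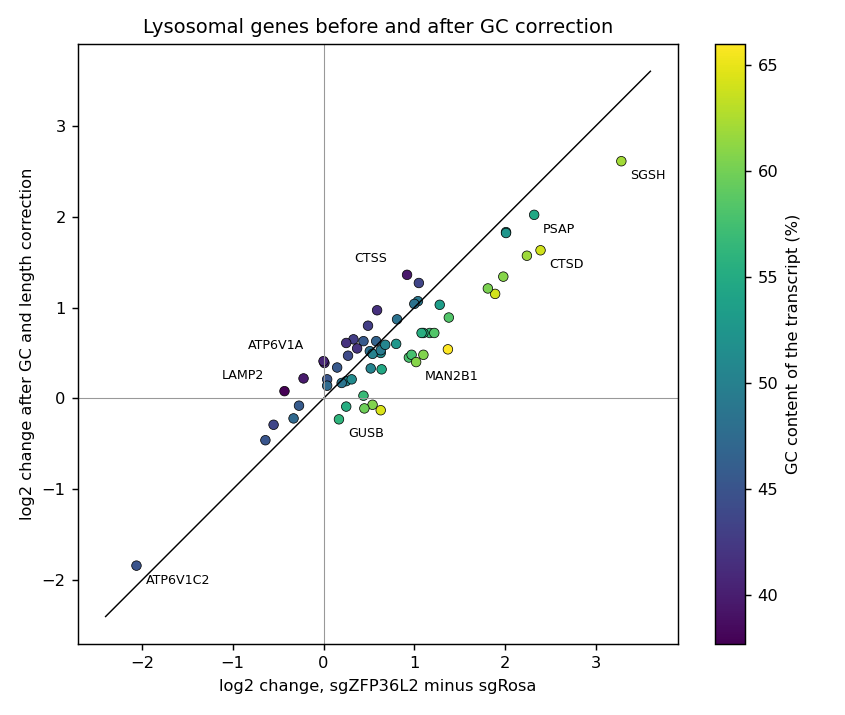
Log2 change before (horizontal) and after (vertical) the GC and length correction, for the 62 lysosomal genes coloured by transcript GC content, with the line of equal values. GC-rich genes such as CTSD (2.39 and 1.63) and MAN2B1 (1.02 and 0.40) move down, and GC-poor genes such as CTSS (0.92 and 1.36) and LAMP2 (-0.43 and 0.08) move up.

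Promoters were searched for CACGTG and TCACGTGA, each its own reverse complement, so that both strands are covered; every TCACGTGA also counts as a CACGTG. TCACGTGA stood in 8 of the 46 lysosomal promoters (17.4%), in 2.07% of the promoters of the analysed genes and in 1.04% of all RefSeq promoters in the table. CACGTG stood in 13 of 46 (28.3%), in 10.5% and in 7.43%. LAMP1 had 6 CACGTG, 2 of them within TCACGTGA, and IGF2R had 3 TCACGTGA. GAA, MCOLN1, CTSA, ATP6V0D1 and IGF2R, of the sequences printed above, rose, and GALNS, ATP6V1G1 and LAMP1 did not pass. Lysosomal genes with TCACGTGA had a median log2 change of 0.78, from 0.25 to 1.98, and the 38 without it had 0.64, from -2.06 to 2.39, with 23 rises and 3 falls. Of the analysed genes with a promoter in the table, the 173 with TCACGTGA had a median of -0.14 and the 8196 without it -0.06; 17.3% and 20.4% rose, and 20.2% and 21.5% fell. None of the 8 promoters of lipid-handling genes in the table, that of GRN among them, held either element. A match is a stretch of letters and not a measured binding site. Other starts of a gene were not searched, so a gene without a match may hold the element elsewhere.

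The TATTTAT element stood in the 3′ UTR of 16 of the 62 lysosomal genes (25.8%) and of 32.6% of the analysed genes with a 3′ UTR. The search was on the strand of the transcript. The median 3′ UTR was 728 bases long for the lysosomal genes and 1110 bases for the analysed genes. No share or change in this paragraph was adjusted for UTR length or GC content, and the part of either was not tested. Of the 16 genes with it 7 rose (43.8%) and 2 fell (12.5%), with a median of 0.20. Of the 46 without it 27 rose (58.7%) and 1 fell (2.17%), with a median of 0.64. Over the analysed genes with a 3′ UTR, 16.7% rose and 26.9% fell among the 3437 with the element, with a median of -0.22, and 23.6% rose and 18.3% fell among the 7121 without it, with a median of 0.04. ATP6V1C2 and ATP6V0A2, which fell, and MCOLN1, ATP6AP1, ATP6V0B and IGF2R, which rose, all carry the element printed above. Of the 8 lysosomal genes with the largest rises, only MCOLN1 carries it.

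Of the MiT/TFE factors, TFEB and TFE3 rose. TFEB had 46.5 and 51.7 CPM with guide 3 and 36.1 and 26.2 CPM with guide 5, against 13.3, 14.9 and 19.9 CPM with sgRosa, a log2 change of 1.27 ± 0.20 (adjusted p = 4.4e-04), and 0.57 after GC correction (adjusted p = 0.016). TFE3 averaged 73.5 ± 11.5 CPM in sgZFP36L2 libraries (SD, n = 4) and 39.6 ± 9.08 CPM in sgRosa libraries (SD, n = 3), a log2 change of 0.90 ± 0.19 (adjusted p = 0.0030), and 0.33 after GC correction (adjusted p = 0.25). TFEC (-0.40 ± 0.22) and MITF (-0.05 ± 0.21) did not pass, and were at 0.23 and 0.32 after GC correction, where they did not pass either. Neither activity nor location of these factors was measured.

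Genes outside the 62 were counted from lists of related functions. Of 33 names of other hydrolases and their helpers 28 were in the table, and 14 rose (50.0%) and 1 fell (3.57%), with a median of 0.48. ACP5, the tartrate-resistant acid phosphatase of macrophages and osteoclasts, was at 28.3 ± 1.81 CPM in sgZFP36L2 libraries (SD, n = 4) and 0.271 ± 0.170 CPM in sgRosa libraries (SD, n = 3), a log2 change of 5.25 ± 0.22 (adjusted p = 3.6e-09). DNASE2, the acid DNase, changed by 3.13 and the acid phosphatase ACP2 by 1.27. GNPTAB, a subunit of the enzyme that places the mannose 6-phosphate tag, fell by 0.75 on the log2 scale (adjusted p = 0.010). Of 26 names of other membrane proteins 23 were in the table, and 12 rose (52.2%) and 4 fell (17.4%) with a median of 0.48. SLC11A1, the metal transporter of phagosomes, changed by 2.64, the potassium channel TMEM175 by 1.27 and CLN3 by 1.13; the falls were TMEM106B, MFSD8, LAPTM4B and TMEM192, of which LAPTM4B alone passed after GC correction.

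Further lists held genes that signal from the lysosome or move it. Of 21 genes of mTORC1, the Rag GTPases and the Ragulator, 2 rose (9.52%; MLST8 1.12, LAMTOR1 0.64) and LAMTOR3 fell (-0.54), with a median of 0.05. After GC correction none of these 3 passed (0.36, 0.16 and -0.04; limma adjusted p = 0.054, 0.28 and 0.80), while FNIP2 rose and LAMTOR2 and NPRL2 fell. Of 23 names for fusion and positioning 19 were in the table, and 4 rose, 21.1% where 20.8% of all genes did, with a median of 0.00 for the list. Among them were PLEKHM2, an adaptor that links lysosomes to kinesin, at 0.74, PLEKHM1 at 0.68 and VPS18 at 0.64; after GC correction these were at 0.06, 0.14 and 0.05 and did not pass. After GC correction 7 of the 28 other hydrolases and helpers rose and 2 fell, and of the 23 other membrane proteins 10 rose and 2 fell. Of the 21 genes of the mTORC1 list 1 rose and 2 fell, and of the 19 for fusion and positioning 3 rose and 1 fell. Over all genes 14.8% rose and 16.7% fell after this correction. The share of rises was above that of all genes for the hydrolases and the membrane proteins. It was near it for fusion and positioning and below it for the mTORC1 list. These differences were not tested.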

How the data were processed

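Poly(A) RNA of 7 MOLM13 libraries was analysed: 4 sgZFP36L2 (2 for each guide) and 3 sgRosa. The submitters' processing notes name the aligner STAR in version 2.5.3 beside limma, edgeR and HTSeq; parameters and strand setting are not given in the sources used here. The authors' deposited table of expression holds FPKM per library, here found to be per kilobase of gene span with introns. Their table of comparisons gives mean CPM of the sgRosa libraries, and the authors' log2 fold changes and false discovery rates (adjusted p-values, q-values) of each guide against sgRosa.

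The span was recovered as deposited mean CPM over mean FPKM, a whole number of bases (within 0.01) for 11398 of 11398 genes. The span of 10 genes at 0 in all sgRosa libraries came from GENCODE 29. FPKM times span gave CPM, and whole reads (within 0.01) for all 7 libraries, in 11405 of 11408 genes, which were analysed; 173 of the 11581 listed genes had no FPKM. One read stood for 0.0261 to 0.0343 CPM in the sgZFP36L2 libraries and 0.0409 to 0.0540 CPM in the sgRosa libraries. This sets only a lower bound on the error of low genes, since the reads carry no molecular identifiers to mark copies from amplification. The library sizes behind these values are adjusted ones. With the read totals of the analysed genes instead, 33 of the 34 rises and all 3 falls kept the call. There 4 rises and 1 fall were added, and the rise of CD68 was lost.

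Limma 3.58.1 (R 4.3.3) fitted log2(CPM + 0.5): a mean for each guide and for sgRosa, moderated variances with a trend (4 residual and 8.8 prior degrees of freedom), all 7 libraries, two-sided p adjusted by Benjamini-Hochberg over 11405 genes. The filter of 1 CPM in 2 libraries removed no gene. The fit was tested on simulated data with 11158 genes tested. Calls were made for 99.0% of the 100 with a 2-fold change and for all 100 with a 4-fold change, and 13 of 212 calls were false. No other genes changed in the simulation, its libraries were independent, and its changes did not follow GC content. The data differ in this, so these rates need not hold for them. Alternatives were other pseudocounts, filters, scalings, FPKM as deposited, voom weights, the replicate number as a block, GC and length correction (loess of each library's deviations), other groupings and each library left out. Tables were made in Python 3.11.15 with pandas 2.3.3 and numpy 2.4.6, figures with matplotlib 3.10.9.

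Guides are numbered as in the deposited columns; the labels number them differently, and nothing depends on the match. Gene coordinates, exons, GC content and 3′ UTRs are from GENCODE 29 (GRCh38), promoters from RefSeq (GRCh38.p14). Named by rule were the 8 highest and 8 lowest called changes that had 1 sign with either guide, the highest and lowest called gene of each role, the 5 highest levels per exon kilobase in sgRosa, the MiT/TFE genes and up to 3 called genes per direction of each list; other genes were named after their values were seen. The genes and lists were chosen with earlier results of these data known. LGMN was not analysed here.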

Additional observations from a re-analysis of the deposited data

Results flagged for a closer look

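In ASAH1, acid ceramidase, 1 sgZFP36L2 library stood apart: guide 3 replicate 1 had 279 CPM, while the other sgZFP36L2 libraries had 202 to 213 CPM. On the scale of log2(CPM + 0.5), the gap took 0.84 of the range of the group, above Dixon's critical value for 4 samples at the 95% level. Of 29 such groups examined, this was the only one found, and chance alone marks about 1 in 20. Without that library the log2 change of ASAH1 was 0.48 (limma adjusted p = 0.12).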

How the results depend on the processing

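Across 22 alternatives 19 of the 34 rises and 1 of the 3 falls kept the call in each alternative that tested them; filters on low values left 6 of these 37 genes untested in 1 alternative or more. No gene named by the rule that had passed the test changed sign. Among those that had not, LAMP1 was at -0.09 with GC and length correction and -0.12 with the replicate block added, and TFEC at 0.23 and 0.20. MITF was at 0.32 and 0.33 there, at 0.02 with TMM scaling and 0.01 with median of ratios scaling, and from -0.16 to 0.06 with libraries left out, above 0 without sgRosa replicate 2, guide 3 replicate 2 or guide 5 replicate 1. Left-out libraries gave 25 to 42 rises and 2 to 4 falls for both guides, 22 to 43 and 1 to 4 for guide 3, 10 to 37 and 1 to 2 for guide 5, and 0 higher and 0 to 4 lower for guide 5 against guide 3. The guide 5 count of 24 rises was 14 without sgRosa replicate 1, 37 without sgRosa replicate 2, 10 without guide 5 replicate 1 and 13 without guide 5 replicate 2. The guide 3 count of 36 rises was 22 without guide 3 replicate 1, and its falls were 1 without either guide 3 library. The 2 falls with guide 5 were 1 without sgRosa replicate 1 or any 1 guide library. The 4 lower genes of guide 5 against guide 3 came without sgRosa replicate 2.

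With the replicate block, both guides gave 33 rises and 4 falls, and guide 5 against guide 3 had 1 gene lower. Replicate numbers share no named source. Same-numbered libraries correlated from -0.489 to 0.373 in their deviations from the mean of their group, and other pairs from -0.588 to 0.588. Deviations within a guide group of 2 libraries mirror each other, so these values are not independent. They do not settle which libraries belong together. With GC and length correction and the replicate block, rises and falls were 22 and 1 for both guides, 21 and 1 for guide 3, and 11 and 1 for guide 5. A crossed pairing of the guide libraries, added after the data were seen, joined those whose deviations correlated at 0.489. It gave 2 higher and 38 lower for guide 5 against guide 3, where 19.5% and 26.9% of all genes were. Such a block takes up shared deviations of these same libraries, so no conclusion is drawn from its counts. Guide 5 against guide 3 had 10 lower with the compared groups alone, and 1 lower on the FPKM scale. Quantile normalization gave 5 falls for both guides. For guide 5, falls were 1 with a mean CPM of at least 10, on the FPKM scale, with no variance trend and with the compared groups alone. Where no share of all genes stands beside a count in this section, a change of the count need not be particular to lysosomal genes. With a library left out, the median log2 change of lysosomal genes over both guides ran from 0.54 to 0.71. The 0.54 came without sgRosa replicate 1, where the median of all genes was -0.116. The 0.71 came without sgRosa replicate 2, where it was 0.0384. Causes were not tested. The edgeR and DESeq2 alternatives were not run; voom on recovered reads, added later, shared 34 rises and 3 falls and added 1 rise. In sgRosa libraries depth limits ATP6V0E2 (6 to 75 reads), ATP6AP1L (12 to 32) and SGSH (18 to 28) most; the next lowest of the 62 was SMPD1 (42 to 120).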
